A study of Lathyrus oleraceus subsp. biflorus and Lathyrus oleraceus and [Pisum sativum] subsp. abyssinicum with 117 samples.

Results

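Seed coats of a wild pea, JI1794 (Pisum elatius), were compared with seed coats of a landrace, JI92 (P. sativum), over the developmental stages D1 to D4. Members were all main-set seed coat libraries of these lines at these stages, 8 of JI1794 and 8 of JI92, so that 16 of the 117 libraries in the series entered. RNA sequencing in the series covered seed coat and embryo of 6 pea lines, to follow gene expression in the seed over development and between wild and domesticated peas. All plants grew in a glasshouse and none was treated. Each line was 1 accession, so that a difference between JI1794 and JI92 cannot be told apart from one between wild and domesticated peas. Each line had 2 libraries per stage, and no label says whether these came from separate plants. P-values therefore measure the spread between these libraries, which may be technical. In fits that give 1 line difference over several stages, the p-values also take in how that difference changed with stage.

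The seed coat is maternal tissue that encloses the embryo, passes nutrients to it during filling and later becomes its barrier to water. In wild peas the mature coat is hard and keeps water out, so that seeds stay dormant, whereas in domesticated peas it lets water in. Thickened palisade cells, phenolic compounds and pigments of the coat are known for their part in these properties. Features appear in the tables without gene names, and 0 of them matched the supplied gene table, so each is given by its identifier and no role is stated. Identifiers that begin with Psat belong to the annotation of the reference cultivar Cameor, and those that begin with Ps_DOR2genes are loci outside it.

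The 16 libraries held 62.61 to 86.6 M counts (M, mega), with a median of 70.5 M. The replicates of a group had Spearman correlations between 0.920 and 0.948, and differed by more than sampling noise in every pair. In all 16 libraries the genes chosen as enriched in seed coat over embryo took between 11.1% and 27.2% of counts, against at most 0.726% in the embryos of both lines. Each library thus carried genes of its labelled tissue. In the JI92 D4 libraries, however, genes chosen as enriched in embryo over seed coat took the larger share. They took 13.4% and 13.3% there, against 12.1% and 12.02% for the seed coat list. In JI1794 D4 the embryo-enriched genes took 4.47% and 5.79%.

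Of the 16 libraries, 3 held counts of features that the other libraries of their line lacked. For each library, features were taken that had at most 3 counts over the other libraries of its line, these 3 left out. They also had at least 1 CPM (counts scaled to a library total of 1 M) in both D4 seed coats of another line. For JI92 these were the D4 seed coats labelled 2017. The 3 had been set apart before this count, so that it describes them and was not a search. Of 737 such features of the wild line JI64, replicate 1 of the library labelled JI92 D4 had more than 3 counts for 427 (57.9%) and replicate 2 for 425 (57.7%). Their summed CPM came to 7.51% and 7.46% of the level in JI64. Of 278 such features of JI1794, the same replicates had more than 3 counts for 52 (18.7%) and 51 (18.3%). These came to 5.26% and 5.87% of the level in JI1794. For features of JI261, Cameor and PI358617 the share with more than 3 counts was 12.3% to 18.2%. Replicate 2 of JI1794 D2 had more than 3 counts for 270 of 818 JI64 features (33.0%), at 0.811% of the JI64 level. In the 13 other libraries the share was at most 1.20% for JI64 features and at most 2.11% for those of any other line. Both D4 replicates of JI92 held the features alike, so that the spread between them does not show it. JI92 D4 seed coats labelled 2017 had at most 1.77%. The source of these counts was not tested, and results are given with and without the 3 libraries. The version without them used the 11 remaining libraries of D1 to D3, 5 of JI1794 and 6 of JI92, because JI92 then had no main-set library at D4.

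**Figure D1:**
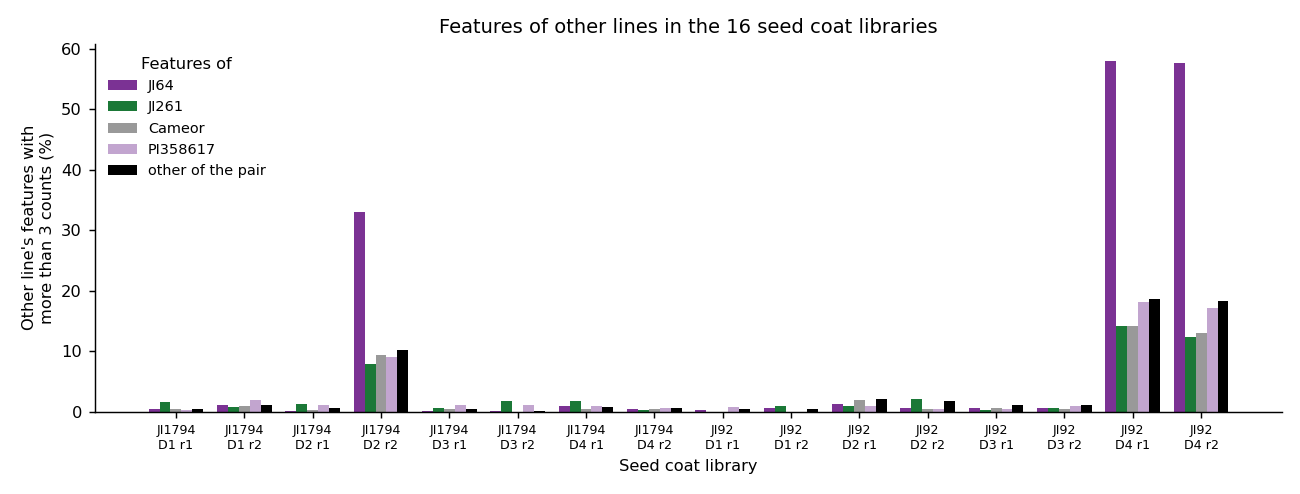
The share of features of another line (y axis, percent) that had more than 3 counts, for each of the 16 seed coat libraries (x axis) and each source line (colours). Features had at most 3 counts over the rest of the library's own line, with the 3 libraries set apart left out. Both JI92 D4 libraries stand at 57.9% and 57.7% for JI64 features and JI1794 D2 replicate 2 at 33.0%, while the 13 others lie at 2.11% or below for every source line.

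Development ran in the same order in both lines, with JI1794 ahead at D2 and D3. A stage score was computed as the mean log2(CPM + 1) of late seed coat genes minus that of early ones, from 300 genes each chosen in a line outside the pair (PI358617). Per stage it averaged -4.17, 0.22, 3.51 and 4.36 in JI1794 and -4.51, -1.25, 2.51 and 5.00 in JI92. Both JI1794 libraries stood above both of JI92 at each of D1, D2 and D3, and the order was turned at D4. Each group was closest in stage to the group of the same label in the other line. The seed-coat-enriched genes peaked in both lines at D2.

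Abundant embryo transcripts, 50 genes at least 16-fold above the seed coat in PI358617, made up a small share of counts that differed between the lines. At D1 the share was 0.0806% and 0.0904% in JI1794 and 0.0900% and 0.129% in JI92. It reached 1.34% and 1.52% against 0.534% and 0.548% at D2, and 2.58% and 2.62% against 2.52% and 2.77% at D3. At D4 it was 2.59% and 3.36% in JI1794 and 6.37% and 6.48% in JI92. JI1794 was thus above JI92 at D2 and below it at D4, and the groups overlapped at D1 and D3. The part of embryo RNA in the comparisons below was not tested beyond a fit with this share as a covariate, which called 14205 features. In bulk tissue, fewer cells of a type and less RNA per cell cannot be told apart.

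**Figure D2:**
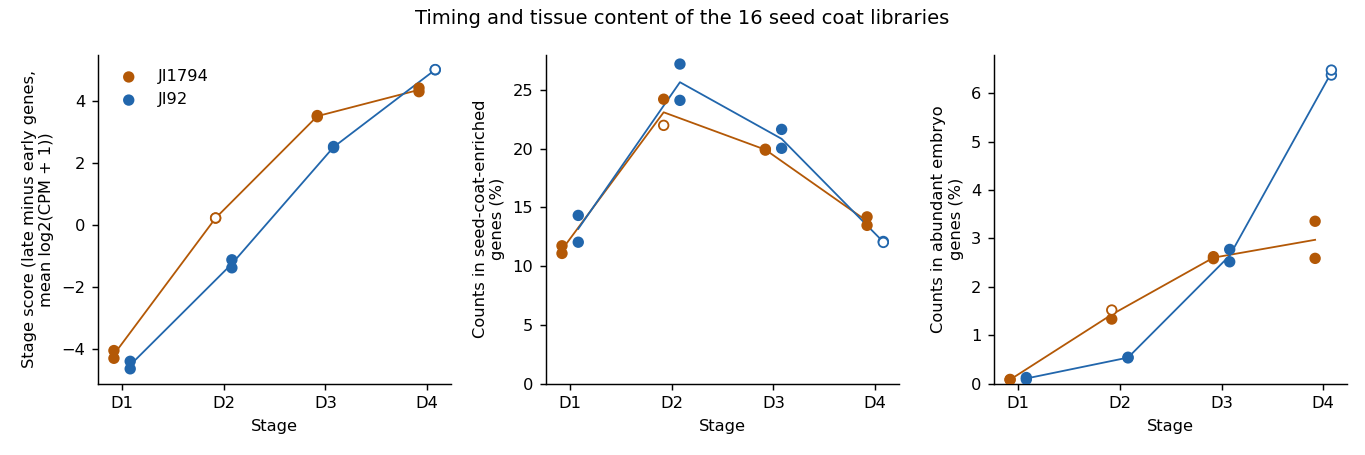
Stage score (left, log2 units), percent of counts in seed-coat-enriched genes (middle) and percent of counts in abundant embryo genes (right) by stage, with 1 point per library, lines through the group means and open points for the 3 libraries with features of another line. JI1794 leads JI92 in score at D2 and D3, both lines peak in seed coat genes at D2, and JI92 at D4 has the highest embryo share, 6.37% and 6.48%.

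A large part of the transcriptome differed between the lines. With stage as a term, edgeR's quasi-likelihood test called 13913 of 31995 features at a Benjamini-Hochberg adjusted p under 0.05, which is 43.5%. JI1794 was higher for 6644 (20.8%) and JI92 for 7269 (22.7%). Of all features tested, 9410 were called at 2-fold or more (29.4%). With the lines paired 1 stage label apart, edgeR called 11814 of 30629 features with JI92 later and 11672 of 30361 with JI1794 later. In all 3 pairings 6214 features were called, 2951 higher in JI1794 and 3263 higher in JI92. On the log2(FPKM + 1) scale limma called 7466 features higher in JI1794 and 5297 in JI92, so that the side with more calls depends on the scale. Without the 3 libraries edgeR called 10326 of 33179 features (31.1%), 5010 higher in JI1794 (15.1%) and 5316 in JI92 (16%). Of the 13721 calls over 16 libraries that were tested there, 9488 were called again in the same direction (69.1%) and 0 in the opposite one. With the D4 libraries of JI92 replaced by those labelled 2017, and without the 1 JI1794 library, 11730 of 34734 features were called (33.8%), of which 5482 were higher in JI1794 (15.8%) and 6248 in JI92 (18%).

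Most differences between well expressed features were small. Among 17300 features with a mean of at least 1 CPM in both lines, 6597 were called (38.1%), 3295 higher in JI1794 and 3302 in JI92, with a median difference of 1.64-fold. At least 2-fold were 2139 of them, 1060 and 1079 by direction. Of 17292 such features without the 3 libraries, 4921 were called (28.5%), with a median of 1.84-fold, and 1039 and 1038 were at least 2-fold. Most calls of at least 2-fold were of features under 1 CPM in at least 1 line. Of 10847 features under 1 CPM in both lines 4321 were called (39.8%), at a median fold of 56.4, and they held 4311 of the 9410 calls of at least 2-fold. Among 3848 features at 1 CPM or more in a single line, 2995 were called (77.8%), at a median fold of 105, and they held 2960. The medians of 56.4 and 105 are of fitted folds for features under 1 CPM in at least 1 line. Where a line had few or no counts, the size of a fitted fold is poorly fixed, so these medians cannot be read as measured sizes. For 8665 features that were not called (27.1% of those tested), the 95% interval of the difference lay inside 2-fold either way. For 9417 others it reached beyond 2-fold, so that a 2-fold difference was neither called nor outside the interval.

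By kind of identifier, loci outside the annotation had the highest share of calls. On the series Psat1g to Psat7g, 39.1% of 21077 tested features were called and 20.3% differed at least 2-fold. In the Psat0s series the shares were 40.3% and 25.6% of 2741 features. Of 8177 loci outside the annotation, 55.9% were called and 54.1% were called at 2-fold or more. These shares were not tested against each other.

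The features described next were chosen by a rule that asked, among other things, that both libraries of a line lie above both of the other at each of the 4 stages. That the groups do not overlap within a stage is therefore fixed by the choice. For all features tested, this held with JI1794 above for 3580 (11.2%) and with JI92 above for 2688 (8.4%).

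Psat7g214320 was on in JI1794 and close to off in JI92 at every stage. In JI1794 seed coats it ran from 100.3 to 141 CPM with a median of 115, and in JI92 from 0.107 to 1.90 CPM with a median of 0.510. No library of JI92 came near the lowest of JI1794, and the 2 JI92 D4 libraries, at 0.110 and 0.193 CPM, were among the lowest. The log2 fold change was 7.78 (SE 0.43, edgeR adjusted p = 1.57e-08) and 7.63 without the 3 libraries (edgeR adjusted p = 3.96e-06). Embryos of JI1794 had 16.1 to 36.2 CPM and those of JI92 at most 0.423 CPM, a log2 fold change of 8.04.

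Psat6g089880 was high in JI1794, with a higher level at each later stage. Its values in JI1794 were 33.4 and 16.01 CPM at D1, 51.3 and 50.4 at D2, 154 and 149.7 at D3, and 265 and 255 at D4. In JI92 they ran from 0.168 to 2.10 CPM, with a median of 0.415. The lines did not overlap in any library. The log2 fold change was 7.06 (SE 0.34, edgeR adjusted p = 3.23e-09). In the embryo it was called in the same direction with a log2 fold change of 1.44 (edgeR adjusted p = 0.00644), where JI1794 had 2.88 to 9.99 CPM and JI92 0.864 to 4.05 CPM. The difference between tissues passed its own test (edgeR adjusted p = 6.23e-06, and 0.000478 at D2 and D3 without the 3 libraries).

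The 3 other features chosen for large folds toward JI1794 turn on the libraries labelled JI92 D4. Psat6g242080 had 6.42 to 15.8 CPM in JI1794. In JI92 it had 0 counts in the 6 libraries of D1 to D3, 9.11 and 9.49 CPM in the main-set D4 libraries, and 0 in the D4 libraries labelled 2017. Ps_DOR2genes.24462 and Ps_DOR2genes.42942 showed the same picture, with at most 0.0571 CPM in JI92 at D1 to D3. At D4 the main-set JI92 libraries had 5.11 and 5.49 CPM of the former and 2.55 and 2.08 CPM of the latter. Main-set JI64 seed coats of D1 to D4 had 5.09 to 14.8 CPM of Psat6g242080, 7.03 to 19.0 of Ps_DOR2genes.24462 and 4.93 to 13.6 of Ps_DOR2genes.42942. The 14.8 CPM came from JI64 D1 replicate 2, where seed-coat-enriched genes took 0.160% of counts and embryo-enriched genes 16.5%. Without that library the highest value of Psat6g242080 was 14.2 CPM. The JI92 D4 level of Psat6g242080 lay inside the JI64 range and those of the other two below it. For Psat6g242080 it also lay inside the JI1794 range and that of JI261 at D1, D3 and D4, 1.59 to 11.3 CPM. JI64 D4 seed coats had 11.7 and 13.5 CPM of this gene. The source of the JI92 D4 counts was not tested.

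Psat0s3746g0080, an abundant seed-coat-enriched gene, was high in the JI1794 seed coat. It ran from 804 to 1341 CPM (median 1055) in JI1794 and from 9.34 to 60.3 CPM (median 24.1) in JI92. The log2 fold change was 5.23 (SE 0.38, edgeR adjusted p = 1.50e-07), and 5.48 without the 3 libraries. In embryos of either line it did not exceed 2.08 CPM. Psat6g192400, also seed-coat-enriched, ran from 9.40 to 55.4 CPM in JI1794 and from 0 to 1.54 CPM in JI92 (log2 fold change 5.53).

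Among late genes, Psat5g199920 had 1.34 and 1.94 CPM in JI1794 at D1, then 753 and 863 at D2, 497 and 533 at D3, and 115 and 231 at D4. JI92 went from 0 at D1 to 25.9 and 27.6 CPM at D4. The peak at D2 was in JI1794 alone of the pair. The log2 fold change over stages was 5.36 (SE 0.67) and 6.37 without the 3 libraries. Embryos of JI1794 held more than the seed coat at D2, where they had 20460 and 19910 CPM, so that embryo RNA in the coat cannot be told apart from seed coat expression for this gene. Psat7g066880 (log2 fold change 3.57) was at 0 in all 8 JI1794 embryos, and ran from 0.511 to 58.2 CPM in the JI1794 seed coat against 0 to 6.81 in JI92. Of the early genes, Psat1g003080 ran from 0.347 to 379.5 CPM in JI1794 and from 0 to 34.98 CPM in JI92 (log2 fold change 3.27). Its call was lost with JI1794 paired 1 stage label later (log2 fold change 0.05, edgeR adjusted p = 0.979). With JI92 1 label later, Psat5g199920 and Psat7g066880 lost theirs (3.56 and 1.33, edgeR adjusted p = 0.119 and 0.0627).

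The most abundant features at least 2-fold higher in JI1794 included 3 annotated genes. Psat4g097880 had 1310 to 4473 CPM in JI1794 and 484 to 1897 in JI92, with a log2 fold change of 1.03. Psat6g213200 ran from 1260 to 3006 CPM against 235.5 to 1515 (log2 fold change 1.32). Psat1g101880 ran from 49.5 to 4135 CPM in JI1794 and from 1.05 to 1344 in JI92, with a log2 fold change of 2.05. Ps_DOR2genes.26304, outside the annotation, ran from 16.6 to 5515 CPM against 0.144 to 554 (log2 fold change 4.16). The ranges over stages overlap for these 4. With JI92 paired 1 stage label later, Psat1g101880 (0.27) and Ps_DOR2genes.26304 (3.42) lost the call, with edgeR adjusted p = 0.88 and 0.29. Both lost it also with JI1794 1 label later. Psat1g101880 and Ps_DOR2genes.26304 did not exceed 3.66 CPM in the embryos of either line. Psat4g097880 reached 221 CPM in JI1794 embryos and 39.7 in those of JI92, and Psat6g213200 reached 980.4 and 977.5 CPM.

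Psat3g090440 was the reverse of Psat7g214320, on in JI92 and near off in JI1794. In JI92 it went from 491 and 522.5 CPM at D1 to 217 and 240.3 at D2, 114.5 and 144 at D3, and 70.9 and 65.3 at D4. In JI1794 it went from 2.22 and 2.15 CPM at D1 to 0.441 and 0.591 at D4. Both lines thus had less at D4 than at D1, and they did not overlap in any library. The log2 fold change was -7.72 (SE 0.18, edgeR adjusted p = 4.89e-12) and -7.78 without the 3 libraries. JI92 seed coats of 2017 had 18.2 to 381 CPM, and embryos repeated the difference with 18.2 to 410 CPM in JI92 against at most 1.99 CPM in JI1794.

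Psat6g070000 was steady over stages in JI92, at 48.8 to 87.2 CPM with a median of 70.6, and had 0.296 to 2.42 CPM in JI1794. Its log2 fold change was -6.75 (SE 0.36), and in embryos it was at 29.7 to 60.3 CPM in JI92 against at most 1.17 in JI1794. Psat7g229720 ran from 117 to 434 CPM in JI92 and from 0 to 22.8 CPM in JI1794 (log2 fold change -6.79). Psat2g028400 ran from 4.63 to 545 CPM in JI92 and from 0 to 12.7 CPM in JI1794 (log2 fold change -7.30). In the last 2 genes the embryos of either line stayed at or below 3.65 CPM. With all JI92 libraries of 2017, both lost the call. Psat7g229720 then had a log2 fold change of -5.78 (edgeR adjusted p = 0.0519) and Psat2g028400 one of -5.08 (edgeR adjusted p = 0.0646). The JI92 D4 libraries of 2017 had 13.3 and 14.2 CPM of the former and 0.0889 and 0.169 CPM of the latter.

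Psat4g186960 was high in JI92 and above 1 CPM in a single JI1794 library. That library was D2 replicate 2, at 8.17 CPM, which is among the 3 with features of another line; the other JI1794 libraries had 0 to 0.671 CPM. In JI92 it ran from 2.44 to 103.5 CPM, and in JI92 embryos it reached 1520 CPM. The log2 fold change was -6.14 (SE 1.24) and -6.45 without the 3 libraries. With JI1794 paired 1 stage label later it was -5.76 and the call was lost (edgeR adjusted p = 0.0678).

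The most abundant features at least 2-fold higher in JI92 were chosen by the same rule, which fixes their order at each stage. In tests of single stages, Psat5g038200 was not called at D4 (edgeR adjusted p = 0.133) nor Ps_DOR2genes.21357 at D2 (edgeR adjusted p = 0.0855). Psat5g038200 ran from 1171 to 4722 CPM in JI92 and from 769 to 1242 in JI1794 (log2 fold change -1.39). Psat3g120240 ran from 474 to 3792 CPM against 155 to 1156 (log2 fold change -2.12), and Psat0s6176g0040 from 264 to 4661 against 146 to 1182 (log2 fold change -1.86). Ps_DOR2genes.21357 ran from 167.5 to 13200 CPM in JI92 and from 0.685 to 1212 in JI1794 (log2 fold change -3.34). All 4 kept their call at D1 to D3 and lost it where the D4 libraries of JI92 were those labelled 2017, as given in the closing section. Ps_DOR2genes.21357 also lost it with JI1794 paired 1 stage label later (log2 fold change -1.37, edgeR adjusted p = 0.317). With JI92 1 label later, Psat0s6176g0040 did (log2 fold change -1.01, edgeR adjusted p = 0.0527).

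Seed-coat-enriched genes toward JI92 included Psat2g028200, with 5.04 to 4261 CPM in JI92 and 1.57 to 292 CPM in JI1794, a log2 fold change of -3.93. Its call was lost with JI1794 paired 1 stage label later (log2 fold change -1.40, edgeR adjusted p = 0.337). Ps_DOR2genes.16971 ran from 153 to 1112 CPM against 0.280 to 365 (log2 fold change -4.46). Of the early genes, Psat4g062160 (log2 fold change -5.97) and Psat7g011320 (-5.50) were lower in JI1794, and of the late genes Psat1g218680 (-4.66) and Psat2g066080 (-4.21). These 4 did not exceed 4.00 CPM in any JI1794 seed coat and reached 64.51, 66.7, 44.1 and 21.8 CPM in JI92.

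**Figure D3:**
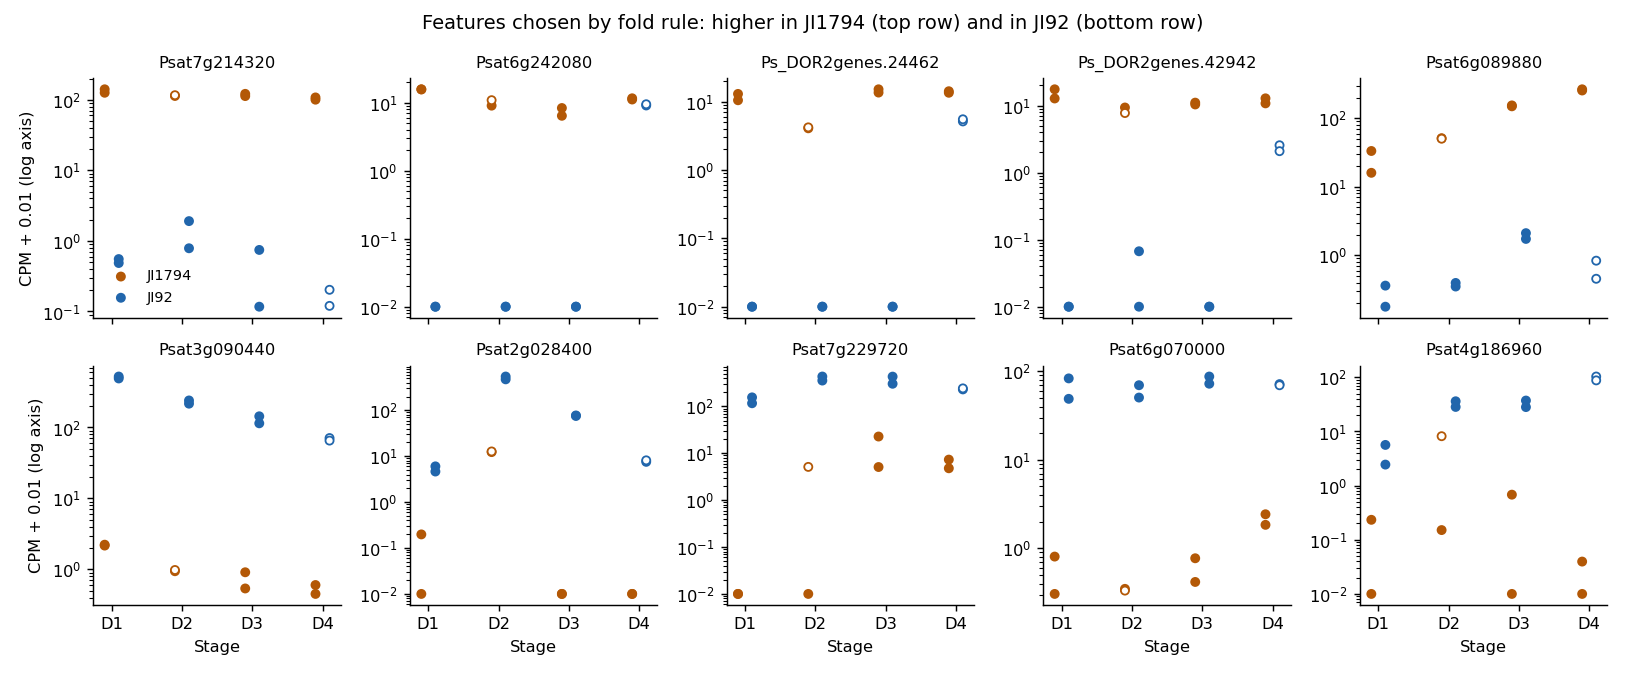
CPM plus 0.01 (y axis, log scale) by stage for the 10 features that the rule chose for large folds, higher in JI1794 in the top row and in JI92 in the bottom row, with 1 point per library and open points for the 3 libraries with features of another line. Psat7g214320 and Psat3g090440 keep the lines far apart at every stage, while Psat6g242080, Ps_DOR2genes.24462 and Ps_DOR2genes.42942 have JI92 counts mainly in the open D4 points.

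Over the main-set stages, seed-coat-enriched genes chosen in PI358617 split in both directions, and early genes were more often higher in JI92. The 300 seed-coat-enriched genes included 81 higher in JI1794 and 81 in JI92 (54.0%) and a median log2 fold change of -0.04, the same as over all features. The counts were 69 and 66 without the 3 libraries (45.0%, against 31.1% of all features), and the median was -0.07. At D4 against the JI92 libraries labelled 2017, 228 were higher in JI1794 and 24 in JI92 (84.0%, against 44.3% of all features), with a median of 3.07. In those libraries the list took 4.13% and 4.29% of counts, against 12.1% and 12.02% in main-set JI92 D4 and 13.5% and 14.2% in JI1794 D4. Of 296 early genes tested, 40 were higher in JI1794 and 119 in JI92, with a median of -0.64. Without the 3 libraries they were 33 and 114 (49.7%, against 31.1% of all features), with a median of -0.73. At D4 against the libraries of 2017 the early genes turned, with 120 higher in JI1794 and 70 in JI92 and a median of 0.61. This was 64.0% of those tested, against 44.3% of all features. At D2 of the main set the early median was -1.13, which the stage score contains, since it is built from the same list. The share of early genes called was 53.7%, against 43.5% over all features.

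Late genes changed sides over the stages. Of 296 tested, 55 were higher in JI1794 and 58 in JI92, with a median of -0.12. Their median was -0.57 at D1, 0.69 at D2, 0.54 at D3 and -0.78 at D4. At D1 to D3 without the 3 libraries the median was 0.22, with 58 higher in JI1794 and 36 in JI92. This was 31.9% of those tested, close to the 31.1% of all features. Genes enriched in the embryo had medians of 0.75 at D2 and -0.76 at D4, and so did the 50 abundant embryo genes at 1.22 and -0.77. At D2 without the 3 libraries, where JI1794 had 1 library, the median was 1.27 for the 50 and 0.52 for 263 embryo-enriched genes. Over all features it was -0.02. The summed share of counts of the 50, given above, was higher in JI1794 at D2 and in JI92 at D4. Its part in the late genes was not tested. In these 3 groups at most 38.2% of tested members were called over the stages, against 43.5% of all features.

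Both lines had higher features at every stage. Over 16 libraries edgeR called 7525 features at D1 (23.5%), 8510 at D2 (26.6%), 9557 at D3 (29.9%) and 9428 at D4 (29.5%). Called at all 4 stages in 1 direction were 1372 features higher in JI1794 and 1711 higher in JI92. Fitted without the 3 libraries, the counts were 5601 at D1 (16.9%), 4355 at D2 (13.1%, JI1794 with 1 library) and 7466 at D3 (22.5%), with 1235 and 1333 called at all 3 stages. With the D4 libraries labelled 2017 in place of the main ones, 15378 features were called at D4 (44.3%) and 5088 at D2 (14.6%). These JI92 D4 libraries stood apart from the main ones, with the lower share of seed-coat-enriched genes given above and a stage score of 5.48 against 5.00. Of 9306 D4 calls tested in both versions, 6940 kept their direction (74.6%) and 495 were called the opposite way.

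The number of features whose line difference changed with stage was lower with D4 left out, where fewer stages and libraries were tested. The line-by-stage test passed 5114 features over 16 libraries (16%) and 884 of 33179 at D1 to D3 without the 3 libraries (2.66%). With the D4 libraries of 2017 it passed 9310 (26.8%). Features called in opposite directions at different stages numbered 1246 and 216. At D1 to D3, 64 features were higher in JI1794 at D1 and in JI92 at D3, and 110 the other way round.

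The 4 features with the smallest p of the line-by-stage test, among those of at least 10 CPM, all moved at JI92 D4. Psat6g138760 stood at 22.3 to 36.0 CPM in JI1794 and at 15.7 to 23.1 CPM in JI92 at D1 to D3, then at 682 and 656 CPM in the 2 JI92 D4 libraries. Those labelled JI92 D4 of 2017 had 72.1 and 65.6 CPM. Psat1g204360 went to 68.0 and 69.6 CPM at JI92 D4 and Psat6g194440 to 580 and 572 CPM. Ps_DOR2genes.1128 did the opposite, with 92.0 and 91.4 CPM at JI92 D3 and 0 at D4, and it was at 0 in the D4 libraries of 2017 as well. At D1 to D3 the test no longer passed Psat6g138760 (edgeR adjusted p = 0.0620) or Ps_DOR2genes.1128 (edgeR adjusted p = 0.0679). It passed Psat1g204360 at 0.0171 and Psat6g194440 at 0.00932 (edgeR adjusted p).

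Some features had counts in a single line of the pair. These were defined by at most 3 counts over all libraries of a line and at least 1 CPM in every library of the other. Over 16 libraries 149 were specific in this sense to JI1794 and 260 to JI92. Without the 3 libraries the numbers were 207 and 335, of which 55 and 99 were annotated genes and 152 and 236 loci outside the annotation. Of the 207, 53 had more than 3 counts in the 2 JI92 D4 libraries, and of the 335, 46 had more than 3 in JI1794 D2 replicate 2.

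Other libraries of the same lines held the split as well. In the JI92 seed coats labelled 2017, 0 of the 207 and 334 of the 335 reached a mean of 1 CPM. In JI92 embryos 191 of the 207 had at most 3 counts, and in JI1794 embryos 309 of the 335. In the embryos of their own line 138 of the 207 and 273 of the 335 reached a mean of 1 CPM.

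Among the annotated JI1794 examples, Psat6g092000 had 16.6 to 46.2 CPM (median 34.1) in JI1794 and 0 in every JI92 seed coat and embryo. Against the limit of 3 counts over the 8 JI92 libraries it was at least 6239-fold higher. It had 0 counts also in the main-set seed coats of JI64, JI261, Cameor and PI358617. Psat3g139920 was at 22.1 to 30.6 CPM and Psat6g073120 at 14.8 to 27.1 CPM, at least 4805-fold and 4149-fold above that limit. Psat1g003520 ran from 12.6 to 33.5 CPM and the locus Ps_DOR2genes.5180 from 32.0 to 56.6 CPM. Cameor seed coats of D1 to D4 had 30.2 to 39.7 CPM of Psat1g003520.

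Toward JI92, Psat0s1675g0040 had 56.7 to 78.7 CPM in the main-set JI92 seed coats of D1 to D4, 13 to 109 CPM in those of 2017, and 0 in every JI1794 library, which is at least 13060-fold higher. PI358617 had 1.24 to 2.89 CPM of it, main-set JI64 seed coats 0 to 1.61 CPM and Cameor at most 0.0415 CPM. Psat6g095280 ran from 14.8 to 32.2 CPM, Psat6g105000 from 7.71 to 48.8 CPM and Psat6g074120 from 2.70 to 40.2 CPM, each with 0 counts in JI1794. Ps_DOR2genes.41941, a locus outside the annotation, had 107 to 281 CPM in JI92 and at most 0.0346 CPM in JI1794. It was at 169 to 225 CPM in Cameor, at 0 in JI261 and PI358617, and at most at 0.0308 CPM in the main-set seed coats of JI64.

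Presence in the other lines did not follow wild or domesticated status for most of these features. Seed coats of D3 and D4 were used for JI64, of D1, D3 and D4 for JI261, and of D1 to D4 for Cameor and PI358617. Of the 207 features of JI1794, a mean of 1 CPM was reached by 56 in JI64 (27.1%), 42 in JI261, 58 in Cameor and 56 in PI358617. Of the 335 of JI92, 133 reached it in Cameor (39.7%), 72 in JI64, 65 in JI261 and 85 in PI358617. Just 6 of the 207 (2.90%) were at 1 CPM in both other wild lines with at most 3 counts in Cameor. Conversely, 49 of the 335 (14.6%) were at 1 CPM in Cameor with at most 3 counts in JI64 and in JI261. Reads of all lines were mapped to the genome of Cameor, so that a feature without counts may be absent, silent or too different in sequence to be mapped, which cannot be told apart here.

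**Figure D4:**
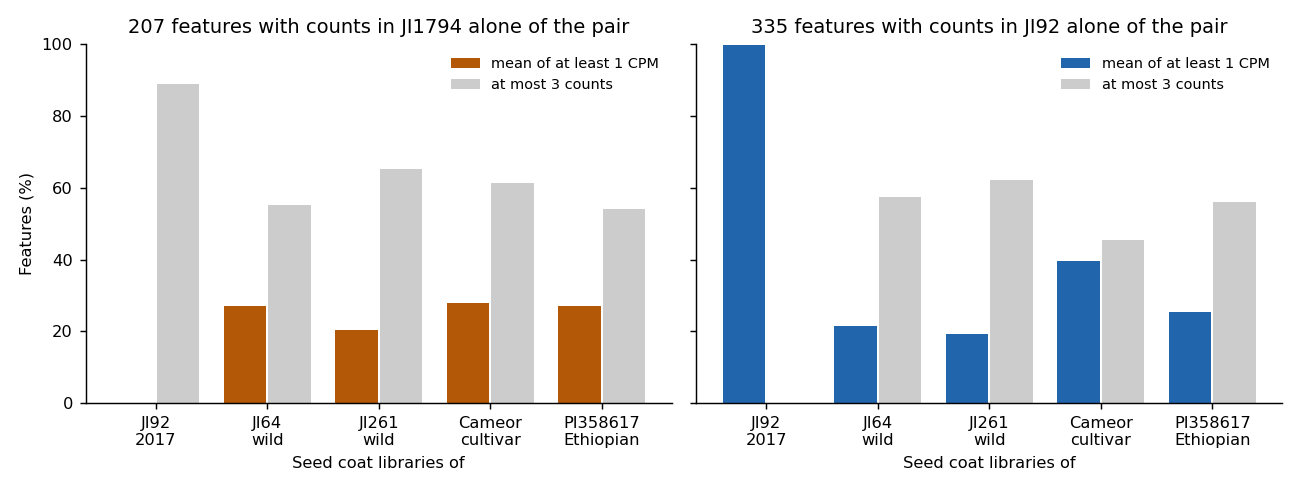
The percent (y axis) of the 207 features with counts in JI1794 alone of the pair (left) and of the 335 with counts in JI92 alone (right) that reached a mean of 1 CPM (coloured bars) or had at most 3 counts (grey bars) in other seed coat libraries (x axis). In the JI92 libraries of 2017, 0 of the 207 and 334 of the 335 reach 1 CPM, and in the other lines between 19% and 40% do.

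Quantitative differences were placed among the other lines too. Features were taken that differed at least 2-fold at D1 to D3 with at least 1 CPM in both lines, 1038 in each direction. Each other line was placed on the side of JI1794 or JI92 by the midpoint between them at the stages used for that line. These were D3 for JI64, D1 and D3 for JI261 and Cameor, and D1 and D2 for JI92 of 2017. The patterns below thus join lines placed at different stages. Of the features higher in JI1794, 40.0% in JI64, 30.4% in JI261 and 49.2% in Cameor lay on its side. Of those higher in JI92, 65.2%, 60.1% and 52.2% did. The pattern with JI64 and JI261 on the side of JI1794 and Cameor on that of JI92 held for 52 of the features higher in JI1794 (5.01%) and for 187 of those higher in JI92 (18%). The pattern with Cameor on the side of JI1794 and the other wild lines on that of JI92 held for 177 (17.05%) and 56 (5.40%). JI1794 stood alone on its side for 263 (25.3%) and 91 (8.77%), and JI92 alone for 81 (7.80%) and 223 (21.5%). These shares were not tested against each other. The JI92 libraries of 2017 were on the side of JI92 for 69.0% and 70.5%.

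In embryos of D2 to D5, 14474 of 29218 features differed between the lines (49.5%), 7118 higher in JI1794 (24.4%) and 7356 in JI92 (25.2%). Of the 11432 seed coat calls tested in both tissues, 6066 were called in the same direction in the embryo (53.1% of the seed coat calls and 47.6% of the 12732 embryo calls), and 949 in the opposite one (8.30%). At D1 to D3 without the 3 libraries, 5170 of 8731 seed coat calls were shared (59.2%, and 40.0% of the embryo calls) and 518 were opposite (5.93%). Across 26631 features the log2 fold changes of the tissues had a Pearson correlation of 0.851, a description over features that share lines and reference.

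A test of line by tissue at D2 to D4 found a difference between seed coat and embryo for 3931 of 32782 features (12%), and for 1330 of 33378 (3.98%) at D2 and D3 without the 3 libraries. Psat0s2407g0200 had opposite directions: 38.9 to 239.6 CPM in JI1794 against 9.48 to 109 in JI92 seed coats, and 0.120 to 11.8 against 11.9 to 174 in embryos. Psat6g040040 ran from 142 to 320.5 CPM in JI1794 and from 11.5 to 77.4 in JI92 seed coats, and from 2.21 to 36.5 against 14.8 to 116 in embryos. Psat3g138120 had 153 to 228 CPM against 64.32 to 144 in seed coats and 12.3 to 42.2 against 48.0 to 95.6 in embryos. These genes were higher in JI1794 in the seed coat and higher in JI92 in the embryo.

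Toward JI92, Psat7g134280 differed in the seed coat, with 15.6 to 59.9 CPM in JI92 and 1.98 to 6.20 in JI1794, and overlapped in the embryo at 5.63 to 15.7 and 8.37 to 24.7 CPM. Psat4g192240 was at 229 to 1315 CPM in JI92 seed coats and at 27.7 to 70.8 in JI1794, with 27.2 to 75.5 and 12.7 to 35.1 CPM in embryos. Psat5g271280 was the other way about: 212 to 369 against 167 to 211 CPM in seed coats, and 16.6 to 27.9 against 1.03 to 5.64 CPM in embryos, where the fold was larger. All 6 kept the tissue difference at D2 and D3 without the 3 libraries, with edgeR adjusted p between 1.07e-05 and 0.00535. These 6 were chosen by the same test on libraries that include those of D2 and D3, so this is not separate evidence. The closing section gives the test with 1 replicate number a group kept.

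**Figure D5:**
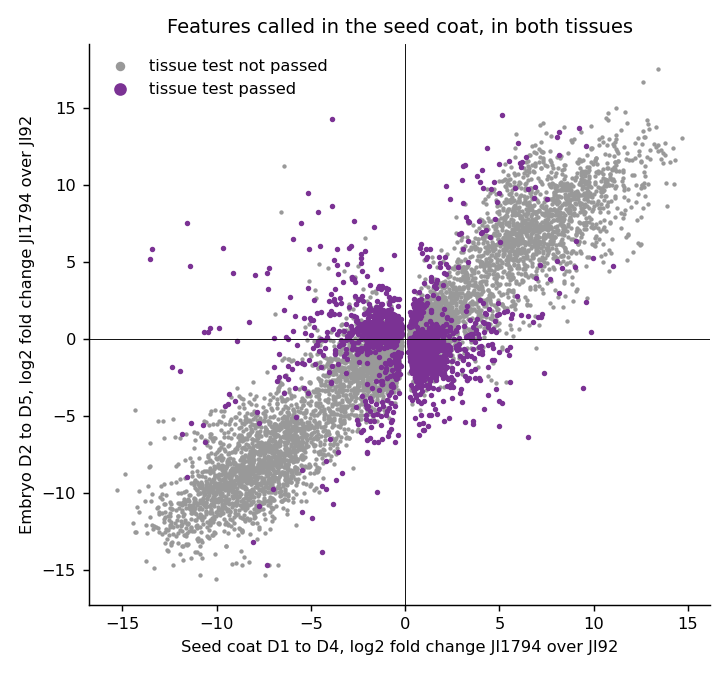
Log2 fold change of JI1794 over JI92 in the seed coat at D1 to D4 (x axis) and in the embryo at D2 to D5 (y axis) for the features called in the seed coat, with those that passed the test of line by tissue in purple. Most points lie along the diagonal, with a Pearson correlation of 0.851 over all features tested in both tissues, and purple points off the diagonal differ between tissues.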

How the data were processed

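Per the labels' protocols, plants were grown in a glasshouse without treatment and poly(A) RNA was sequenced. Mapping was to the pea reference genome of Cameor (v1.0), per the design text. HISAT2 2.1.0 and StringTie 2.1.0 are listed, with no roles, per the submitters' processing notes. Strand, counting rule and treatment of multiply matching reads are not given in the sources used, so near-identical copies and antisense neighbours are uncertain. Deposited were, from the authors, raw counts of reads per feature and FPKM values scaled by length and mapped total. Both list 59594 features: 27650 of Psat1g to Psat7g, 4207 of Psat0s and 27737 outside the annotation. In both, 10 rows repeat an identifier and are not named.

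Counts were tested in R 4.3.3 with the quasi-likelihood F test of edgeR 4.0.16 (TMM, default low-count filter, robust fitting, Benjamini-Hochberg adjustment, threshold 0.05), with stage and line as terms. A cell-means fit gave the stages and line by stage, and further fits gave embryos (D2 to D5) and line by tissue (D2 to D4). The fits were tested on simulated data with known changes. CPM was computed from library totals. A 95% interval covers the spread between libraries and any change of the line difference with stage. Limits from counts cover counting error only.

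Same-numbered replicates of the lines did not pair. Alternatives were RLE, no filter, DESeq2 1.42.0, log2 FPKM with a pseudocount of 1 or 0.1 in limma 3.58.1, group means, other stage pairings, JI92 libraries of 2017, covariates and leaving out libraries. The check for features of another line, and the fits without the 3 libraries, were chosen after seeing the data.

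The comparison, its gene lists and the rule for named features were chosen with earlier results of these data known. Lists of 300 genes (50 for abundant embryo genes) were ranked in PI358617. Named were, among features with a unique identifier called in the main test and not overlapping at any stage, per direction: 5 of the largest fold (at least 10 CPM in the higher and 0.5 CPM in the lower line), 4 of the highest CPM at 2-fold or more, 5 with counts in a single line, 2 of the largest fold from each of 3 lists, and 3 with the smallest p of line by tissue. The 4 with the smallest p of line by stage were added.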

Additional observations from a re-analysis of the deposited data

Results flagged for a closer look

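The difference between JI1794 and JI92 seed coats changed with stage for 5114 features and differed from that in the embryo for 3931, by tests of the difference itself in edgeR. With the libraries labelled JI92 D4 and replicate 2 of JI1794 D2 left out, these counts were 884 and 1330.

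Among the features named in the report, 23 had a line difference that changed with stage over 16 libraries. By edgeR adjusted p of line by stage they were Psat6g138760 (4.95e-08), Ps_DOR2genes.1128 (7.91e-08), Psat1g204360 (1.17e-07), Psat6g194440 (1.92e-07), Psat6g242080 (3.38e-06), Ps_DOR2genes.24462 (6.49e-06), Psat1g101880 (1.11e-05), Ps_DOR2genes.42942 (0.000154), Psat6g213200 (0.000284), Psat2g066080 (0.000671), Psat5g199920 (0.000966), Psat6g192400 (0.00173), Ps_DOR2genes.16971 (0.00288), Psat6g040040 (0.00318), Psat3g138120 (0.00345), Psat2g028400 (0.00365), Psat7g011320 (0.00659), Psat7g066880 (0.00765), Psat5g200160 (0.00814), Psat1g218680 (0.0107), Ps_DOR2genes.26304 (0.0175), Psat4g192240 (0.0432) and Psat0s2407g0200 (0.0456).

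In the comparison of tissues, 12 named features had a line difference in the seed coat unlike that in the embryo. By edgeR adjusted p of line by tissue they were Psat7g134280 (3.10e-09), Psat5g271280 (5.68e-08), Psat4g192240 (2.05e-07), Psat0s2407g0200 (5.59e-07), Psat6g040040 (7.12e-07), Psat3g138120 (4.89e-06), Psat6g089880 (6.23e-06), Psat6g213200 (0.00199), Psat7g066880 (0.0039), Psat2g028200 (0.0148), Psat0s3746g0080 (0.0159) and Psat0s6176g0040 (0.0263). Of these, 6 were chosen by this test, which passed 12% of all features tested.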

How the results depend on the processing

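Over the stages the count of 13913 stayed within 1.5 times under every alternative run, from 9410 with a log2 fold change of at least 1 and 10326 without the 3 libraries to 14926 with group means, and leaving out 1 library gave 12835 to 13647. Same-numbered replicates did not deviate together (correlations of -0.266 to -0.039), and a fit with the replicate block called 13231. The stage counts depended on single libraries: leaving out 1 gave 4831 to 7925 at D1 (4831 and 4878 without JI1794 replicates 1 and 2), 5317 to 9209 at D2 (5346 and 5317 without the same at D2), 6083 to 10311 at D3 (6083 and 6272 without those of D3, 6163 without JI92 replicate 1) and 6043 to 10237 at D4 (6144 and 6043 without JI92 replicates 1 and 2). Fitted alone, D1 had 4459 calls. Line by stage ranged from 3342 (without JI92 D4 replicate 2) to 6641. Without the 3 libraries D2 had 4355 calls, line by stage 884 and line by tissue 1330. With the JI92 D4 libraries of 2017, D2 had 5088, D4 15378 and line by stage 9310. Keeping 1 replicate number a group left 940 and 1626 embryo calls and 0 and 0 for line by tissue (2175 and 2232 at an unadjusted p under 0.05, edgeR), against 13340 to 15155 and 2732 to 4471 with 1 library out, where the lone library is assumed to vary like the others. Of 1610 values of 46 named features, 1584 kept direction and call, 23 lost the call and 3 reversed: with all JI92 libraries of 2017 the log2 fold changes of Psat5g038200, Psat3g120240 and Psat0s6176g0040 were 0.42, 0.47 and 0.52. These and Ps_DOR2genes.21357 lost the call with the D4 libraries of 2017. The cause was not tested. Depth limits features under 1 CPM most.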
